A study of Mus musculus with 8 samples.

Results

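The complement genes measured here were C1qa, C1qb, C1qc, C2, C3, C4b, Cfb, C3ar1 and C5ar1. They were taken by gene name from the array's own annotation, which placed 13 probes of 60 bases on these 9 genes, out of 37074 gene names and 56605 probes on the array. The samples were 4 male C57BL/6J (B6) mice and 4 male BTBRTF/ArtRbrc (BTBR/R) mice, an inbred strain studied for autism-like behavior. None was treated or carried an engineered allele. The age was 4 months, except for BTBR/R replicate 1 at 6 months. Total RNA of the whole cerebral cortex and striatum of each mouse was labeled with Cy3 and hybridized to 1 array, and the question was which complement transcripts differed between the strains.

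Complement is a cascade of plasma and tissue proteins that tags surfaces for removal. In the classical pathway, the recognition molecule C1q, built from A, B and C chains, recruits proteases that cleave C4 and C2 into an enzyme that cleaves C3, and the alternative pathway reaches C3 through factor B. In the brain, C1q is made largely by microglia, C4 and C3 also by astrocytes, and C1q and C3 tag synapses that microglia then engulf through complement receptors.

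Values are scaled signals, the log2 of the processed signal minus the log2 of that array's 75th percentile, so that 0 is the 75th percentile and 1 unit is a 2-fold difference. They compare arrays for a given probe, not the levels of different probes. A change is the BTBR/R mean minus the B6 mean, tested with limma across all 56605 probes, and a probe passed at a Benjamini-Hochberg adjusted p below 0.05. Detection differed between the strains: the share of probes well above background was 64.5% to 66.8% in B6 and 53.5% to 57.2% in BTBR/R, and the lowest signal detected ranged from 14.5 to 17.8 in B6 and from 36.1 to 47.1 in BTBR/R. All arrays were on 1 slide with 1 scan. The first position number in the array barcode was 1 for B6 and 2 for BTBR/R, so slide position and strain cannot be told apart. Markers of cortical (Tbr1, Slc17a7) and striatal (Drd1, Penk) neurons were detected on all 8 arrays, and none of the 9 neuronal markers passed the test by its brightest probe, although a dimmer Drd1 probe passed lower, at -0.31.

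Of the 13 complement probes, 8 were detected on all 8 arrays, covering C1qa, C1qb, C1qc, C2, C3 and C4b, 2 on some arrays and 3 on none. Of the 8, 3 passed, all lower in BTBR/R and without overlap between the strains. Among all 28547 probes detected on all 8 arrays, 26.9% passed in either direction and 13.9% passed lower, and 32.6% did not overlap. The 3 probes were the detected probes of the 3 C1q chains. The C1qb probe also passed a 2-fold limit, which 2.20% of the detected probes did in either direction and 1.16% did lower. The median change of the 8 probes was -0.27, against 0.00 over all detected probes. Probes for C2, C3 and C4b did not pass. Counted regardless of detection, 6 of the 13 probes passed and 3 passed the 2-fold limit as well, where 39.3% and 22.4% of all probes did.

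**Figure D1:**
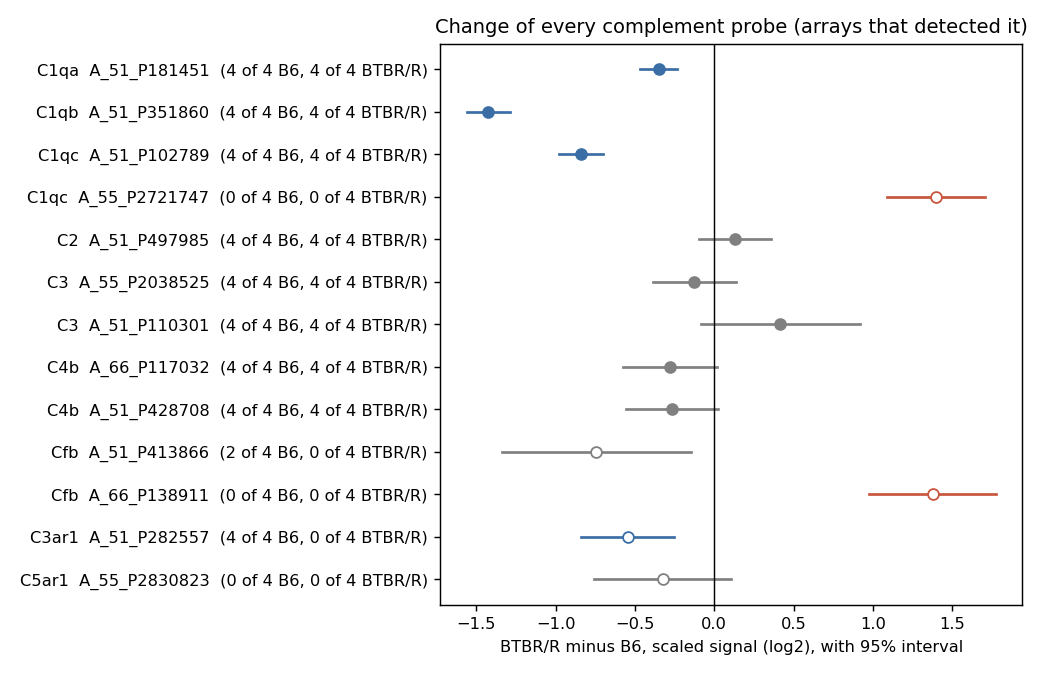
Change (BTBR/R minus B6, log2 scaled signal, horizontal axis) of each of the 13 complement probes, with limma's 95% interval and n = 4 arrays per strain. Filled points were detected on all 8 arrays and open points were not, with the number of detecting arrays beside each name; blue passed lower, red passed higher and grey did not pass. The detected probes of the C1q chains lie between -1.42 and -0.35. Both red points, for C1qc and Cfb, are probes detected on no array.

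The 3 chains of C1q lie together on chromosome 4. Their detected probes map to positions 136452409 to 136452468 (C1qa), 136445766 to 136445825 (C1qc) and 136436578 to 136436637 (C1qb) of the mm9 build, on the minus strand, and the annotation assigns them to the RefSeq transcripts of these genes. The change of each chain rests on 1 detected probe, and whether BTBR/R differs from B6 in the sequence under it was not tested, so each change below is one of probe signal. The probes of C1qa, the chain with the smallest change, and C1qb, the chain with the largest, are shown, 5′ to 3′ and without capitals since no stretch was singled out.
C1qa probe: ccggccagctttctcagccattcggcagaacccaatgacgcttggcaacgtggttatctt
C1qb probe: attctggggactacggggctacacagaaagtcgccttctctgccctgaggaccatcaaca

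C1qb, the B chain, had scaled signals of 1.77, 1.86, 1.81 and 1.69 in the B6 mice and 0.34, 0.45, 0.36 and 0.29 in the BTBR/R mice. The groups were far apart and each was tight, at 1.78 ± 0.07 and 0.36 ± 0.07 (mean ± SD, n = 4 each). The C1qb signal fell by 1.42 ± 0.06 (SE) in BTBR/R, 2.68-fold, with an adjusted p of 8.42e-06 (limma). The 95% interval was -1.56 to -1.29.

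C1qc, the C chain, had scaled signals of 2.16, 2.26, 2.23 and 2.13 in B6 and 1.35, 1.43, 1.41 and 1.24 in BTBR/R. Every BTBR/R array lay below every B6 array, and the change was -0.84 ± 0.06 (SE), a 1.79-fold decrease with an adjusted p of 2.76e-05 (limma). A second C1qc probe, annotated to an Ensembl transcript, was not well above background on any array. It passed higher, at 1.40, but with the normexp background correction its change was -0.10 and did not pass. Of the 14874 probes detected on no array, 72.6% passed higher, so its sign says nothing of C1qc.

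C1qa, the A chain, had scaled signals of 1.86, 1.95, 1.90 and 1.82 in B6 and 1.56, 1.58, 1.53 and 1.45 in BTBR/R. The strains were closer than for the other chains but still did not overlap. The change was -0.35 ± 0.05 (SE), a 1.28-fold decrease, with an adjusted p of 0.00108 (limma). In bulk tissue, fewer cells that make C1q and less C1q RNA per cell cannot be told apart.

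**Figure D2:**
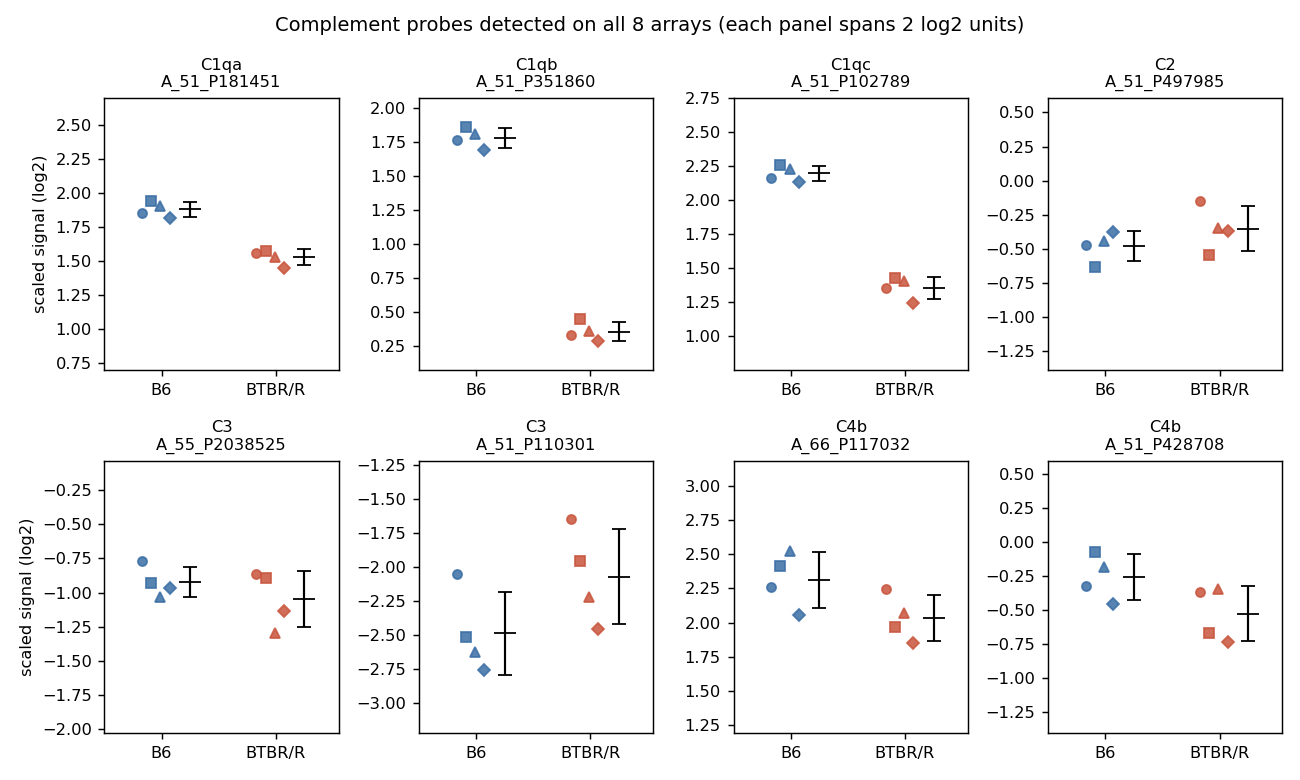
Scaled signal (log2, vertical axis) of the 8 complement probes detected on all 8 arrays, in B6 (blue) and BTBR/R (red). Each point is 1 array (replicate 1 circle, 2 square, 3 triangle, 4 diamond), the bar is the mean ± SD of 4 arrays, and every panel spans the same range of 2 log2 units; the strains separate for C1qa, C1qb and C1qc and overlap in the other panels.

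The signals of the 3 chain probes did not change by the same amount. C1q contains the chains in equal number, so the difference between chains was taken within each array, where the scaling cancels. C1qb minus the mean of C1qa and C1qc was -0.24, -0.24, -0.25 and -0.29 in B6 and -1.12, -1.05, -1.11 and -1.06 in BTBR/R. The shift between the strains was -0.83, many times the spread of either group (SD 0.02 and 0.03), with a two-sided exact permutation p of 0.0286, the smallest that 4 against 4 arrays allow. By pairs, C1qb minus C1qa shifted by -1.07, C1qb minus C1qc by -0.58 and C1qc minus C1qa by -0.49. Each was again without overlap and had an exact permutation p of 0.0286. The 4 differences are built from the same 3 probes and are not independent. Benjamini-Hochberg adjustment over them left 0.0286, as it must when all p-values are equal, so it adds no support to the shifts. Only these shifts compare, since the difference within a strain also holds how bright each probe is.

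**Figure D3:**
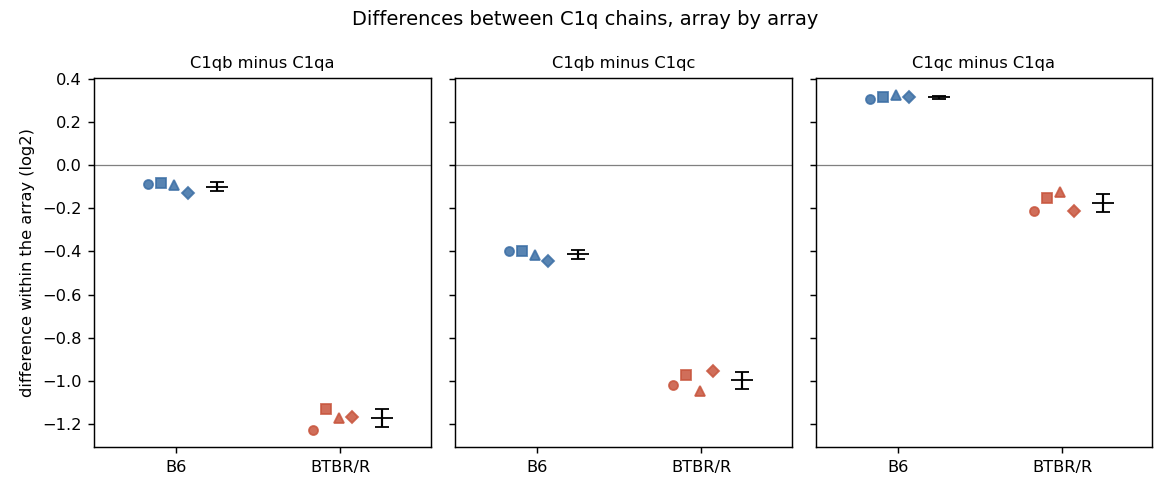
Difference in scaled signal between pairs of C1q chains within each array (log2, vertical axis) for the 4 B6 (blue) and 4 BTBR/R (red) arrays, with the mean ± SD beside the points. The BTBR/R arrays lie below the B6 arrays in every panel, by 1.07, 0.58 and 0.49 from left to right.

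Promoter sequence from RefSeq on GRCm38.p6 was at hand for C1qb, C1qc, C3, C3ar1 and C5ar1, 5 of the 9 genes. The 200 bases before the start of C1qb (chr4:136886201-136886400, minus strand) and of C1qc (chr4:136892915-136893114, minus strand) are shown because both chains fell. Capitals mark ACTTCCT, the reverse complement of AGGAAGT, a core that transcription factors of the ETS family such as PU.1, the myeloid regulator in microglia, are known to bind.
C1qb upstream: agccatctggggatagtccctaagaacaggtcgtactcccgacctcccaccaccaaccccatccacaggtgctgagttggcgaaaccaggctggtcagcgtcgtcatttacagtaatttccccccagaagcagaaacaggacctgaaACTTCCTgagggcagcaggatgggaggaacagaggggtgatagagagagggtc
C1qc upstream: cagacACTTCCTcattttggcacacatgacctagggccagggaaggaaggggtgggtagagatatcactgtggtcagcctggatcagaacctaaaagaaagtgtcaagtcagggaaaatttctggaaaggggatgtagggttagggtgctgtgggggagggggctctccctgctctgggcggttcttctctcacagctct

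Searched on both strands over 300 bases, from 250 before to 50 after the start, AGGAAGT was found 53 bases upstream in C1qb, 195 upstream in C1qc and 190 and 72 upstream in C5ar1, all on the minus strand of the gene, and not in these windows of C3 and C3ar1. The letters occur in 3072 of 32851 promoters of that length, 9.35%. The motif was chosen after the sequences were seen, and a match is a description only. Around the C1q genes, within 250 kb on mm9, 4 other probes were detected on all 8 arrays, for Ephb2, Epha8 and Zbtb40. These were looked up after the C1q values were known. None passed, with changes from -0.14 to 0.15.

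Microglial markers were set beside the C1q chains, since microglia are the main source of C1q in brain. All 18 were detected, and 9 of 18 passed, 8 lower and 1 higher, or 4 lower and 3 higher with spike-in scaling. With the array median or the percentile over detected probes, 8 were lower and none higher. Among the 18840 genes whose brightest probe was detected on all arrays, 28.3% passed, 14.4% lower and 13.9% higher. The median change of the 18 was -0.14. The list mean ranged from 1.77 to 1.81 in B6 and from 1.54 to 1.64 in BTBR/R. Tyrobp, the signaling adaptor of Trem2, fell by 0.76 (adjusted p of 2.76e-05, limma), Cx3cr1, the fractalkine receptor, by 0.71, Trem2, a lipid receptor, by 0.59 and Ctss, a lysosomal protease, by 0.54. A second Cx3cr1 probe rose by 1.71 and all 8 arrays detected both probes, so these probes disagree. Dimmer probes of Siglech (0.38) and Olfml3 (-0.44 and -0.50) passed where the brightest probe of the gene did not. The brightest probes had the opposite sign, at -0.09 for Siglech and 0.32 for Olfml3, so the probes of these genes disagree too. P2ry12, an ADP receptor of resting microglia, rose by 0.22 but passed in only 7 of 18 alternatives, and Csf1r, the growth factor receptor they depend on, did not pass at -0.03, nor did Tmem119 at 0.10.

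Relative to the list mean of the same array, C1qa differed between the strains by -0.18, C1qc by -0.67 and C1qb by -1.25. The C1qb difference was -0.04, 0.08, 0.02 and -0.08 in B6 and -1.30, -1.19, -1.28 and -1.25 in BTBR/R. C1qb thus stood apart from the list on every BTBR/R array by over 1 log2 unit more than on any B6 array. The C1qa difference was 0.04, 0.16, 0.11 and 0.05 in B6 and -0.08, -0.06, -0.11 and -0.09 in BTBR/R. The part of microglial content in the C1q changes was not tested further. Of the markers of other cell types, set against the same 28.3% of all genes (14.4% lower), 2 of 4 detected perivascular macrophage markers were lower (Pf4 -0.69, F13a1 -0.43), as were 4 of 9 astrocyte markers (Aldoc -0.36, Aldh1l1 -0.31, Aqp4 -0.28, Slc1a2 -0.28), 2 of 6 oligodendrocyte markers (Mobp -0.80, Mog -0.35) and 1 of 5 endothelial markers (Cldn5 -0.51). With spike-in scaling these 4 lists had 1, 2, 1 and 1 markers lower and none higher. These counts take the brightest probe of each gene, and a dimmer Mbp probe detected on all arrays passed higher, at 0.48. Single arrays moved these small counts. The oligodendrocyte count was 4 without B6 replicate 4, also with array-median scaling, and 1 without B6 replicate 1, 2 or 3 or BTBR/R replicate 3 or 4. The perivascular macrophage count was 1 without B6 replicate 2 or 3 or BTBR/R replicate 1 or 2, and the endothelial count was 2 without BTBR/R replicate 1 and with array-median scaling. None of 6 choroid plexus and none of 3 detected blood leukocyte markers passed.

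**Figure D4:**
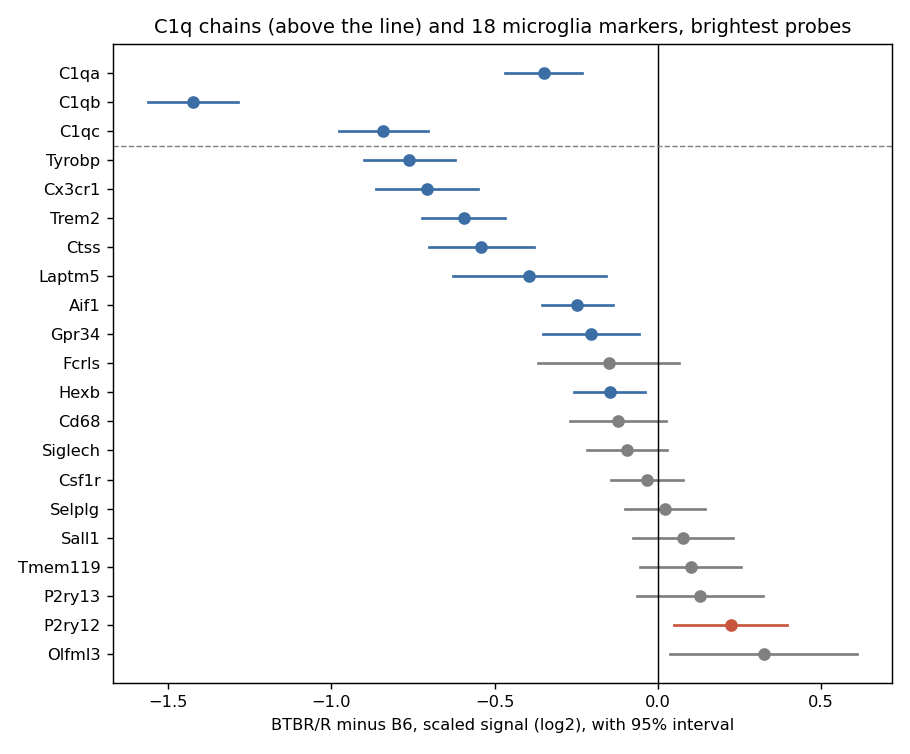
Change (BTBR/R minus B6, log2 scaled signal, horizontal axis) with 95% interval of the 3 C1q chains, above the dashed line, and of 18 microglial markers, by the brightest probe of each gene (n = 4 arrays per strain). Blue passed lower, red passed higher and grey did not pass. C1qb, at -1.42, and C1qc, at -0.84, lie left of all 18 markers, and C1qa, at -0.35, lies among them.

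C4b, the mouse complement C4 cleaved by the C1 complex and made by astrocytes and other glia, had 2 probes detected everywhere. The brighter one read 2.26, 2.41, 2.53 and 2.05 in B6 and 2.25, 1.97, 2.07 and 1.85 in BTBR/R. The strains overlapped, at 2.31 ± 0.20 against 2.03 ± 0.17 (SD, n = 4 each), and the change of -0.28 (95% interval -0.57 to 0.01) did not pass, with an adjusted p of 0.119 (limma). Without B6 replicate 4, the lowest B6 array, the change was -0.37 with an adjusted p of 0.0474 (limma). The other C4b probe gave -0.27 (95% interval -0.56 to 0.02, adjusted p of 0.129, limma). The annotations of this other probe and of the C4a probe list transcripts of both C4b and its near copy C4a, so their signals cannot be assigned to 1 gene with certainty. They are shown because the annotation ties each to both genes.
C4b probe: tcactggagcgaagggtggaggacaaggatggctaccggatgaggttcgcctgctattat
C4a probe: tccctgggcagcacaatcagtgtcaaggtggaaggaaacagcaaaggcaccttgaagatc

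C2, the protease subunit of the classical C3 convertase, had scaled signals of -0.47, -0.64, -0.44 and -0.38 in B6 and -0.15, -0.55, -0.35 and -0.37 in BTBR/R. The groups overlapped and the change was 0.13 (95% interval -0.10 to 0.35, adjusted p of 0.336, limma). C3, on which all routes of complement converge, had scaled signals of -0.77, -0.93, -1.03 and -0.96 in B6 and -0.87, -0.90, -1.30 and -1.14 in BTBR/R by its brighter probe. These also overlapped, with a change of -0.13 (95% interval -0.39 to 0.14, adjusted p of 0.417, limma). The dimmer C3 probe ranged from -2.76 to -2.05 in B6 and from -2.45 to -1.64 in BTBR/R and gave 0.42 (95% interval -0.08 to 0.92), the opposite sign, with neither probe passing. Single arrays moved these small changes within their intervals, and neither gene passed without any 1 array. C2 read 0.08 without B6 replicate 2, 0.06 without BTBR/R replicate 1 and 0.19 without BTBR/R replicate 2. The brighter C3 probe read -0.07 without B6 replicate 1 and -0.04 without BTBR/R replicate 3, and the dimmer one 0.28 without BTBR/R replicate 1. For C2, C3 and C4b, changes within these intervals could not be told from none with 4 arrays per strain.

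Cfb, factor B of the alternative pathway, was at the detection limit. Of its 2 probes, 1 was well above background on 2 B6 arrays and on no BTBR/R array, and its change of -0.74 (adjusted p of 0.0527, limma) became -0.05 with the normexp correction. The other was detected nowhere, and its change of 1.38 in the main scale was -0.07 with normexp. No level of Cfb was therefore compared.

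The receptors were dim. C3ar1, the receptor of the C3a fragment found on microglia, had scaled signals of -4.34, -4.19, -4.27 and -4.57 on the B6 arrays, all well above background, and of -4.59, -4.90, -4.98 and -5.07 on the BTBR/R arrays, none well above background. All BTBR/R arrays lay below all B6 arrays, and the probe passed lower, with a change of -0.54 and an adjusted p of 0.0112 (limma). No bound on the fold could be set, because the lowest signal detected in BTBR/R lay above the B6 signal of this probe. With the normexp correction the change was -0.19 (adjusted p of 0.0341, limma). C5ar1, the main receptor of C5a, was not well above background on any array, and ranged from -5.83 to -4.89 in B6 and from -5.81 to -5.61 in BTBR/R.

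The rest of the pathway was read from a list of 46 further complement genes, of which 45 had a probe and 24 were detected on all 8 arrays by their brightest probe. Of these 24, 8 passed, 5 lower and 3 higher, or 1 lower and 5 higher with spike-in scaling. Without B6 replicate 2, and likewise without B6 replicate 3, 5 passed, 2 lower and 3 higher. The median change of the 24 was -0.04. This share, 8 of 24, was close to the 28.3% of all genes that passed by the brightest detected probe (14.4% lower, 13.9% higher), so the count is no result about these genes. By role, 3 of 5 initiation genes, 1 of 3 alternative and terminal genes, 1 of 11 regulators and 3 of 5 receptors passed.

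Masp2, the protease that cleaves C4 and C2 in the lectin pathway, had the largest change of any complement gene detected on all arrays. Its scaled signals were -2.22, -2.14, -2.05 and -2.27 in B6 and 0.16, 0.31, 0.26 and 0.24 in BTBR/R. The groups were separated by far more than their spread, and Masp2 rose by 2.41 ± 0.06 (SE), 5.31-fold (adjusted p of 1.15e-06, limma). A second detected Masp2 probe rose by 2.21. Strain differences in the sequence under the Masp2 probes were not tested either. Masp1, a partner protease, rose by 0.40, while 2 further detected Masp1 probes read 0.28 and 0.18 and did not pass. Cfp, properdin, which stabilizes the alternative convertase, rose by 0.43, and its second probe by 0.64.

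C5ar2, the second C5a receptor, had scaled signals of -1.79, -1.77, -1.73 and -1.93 in B6 and -2.68, -2.66, -3.00 and -2.85 in BTBR/R. It fell by 0.99 on the log2 scale, 1.99-fold, with an adjusted p of 6.38e-05 (limma), and by 0.56 with normexp. Cr2, the receptor of C3d, fell by 0.42, and Itgb2, the beta chain of complement receptor CR3, by 0.31, whereas its alpha chain Itgam did not pass at -0.01. C4a fell by 0.52 with overlapping strains and did not pass with normexp. Among regulators, Clu, clusterin, fell by 0.16. Over the 18 alternatives, Clu passed in 10, Cr2 in 13 and C4a in 9. Serping1, Vtn, Cd55 and Csmd1 to Csmd3 did not pass by their brightest probes, but of 4 dimmer detected Csmd1 probes 1 passed higher, at 0.49.

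Some genes were named because they passed and every B6 array, but not every BTBR/R array, detected them. The lowest signal detected was higher in BTBR/R, so a lower signal there was partly set by this choice. Their p-values therefore add no support for a strain difference. Of these genes, Cd59b, an inhibitor of the membrane attack complex, was at least 2.41-fold lower (adjusted p of 0.00151, limma), with no BTBR/R array well above background. Colec11, a lectin pathway recognition protein, was at least 1.44-fold lower with 1 BTBR/R array above background. These bounds set the B6 mean against the higher, on each BTBR/R array, of the probe's own signal and the lowest detected signal. They hold for the scaled processed signal: with normexp the changes were smaller, at -0.71 for Cd59b and -0.35 for Colec11, which still passed. Cd46, a C3b cofactor with 2 BTBR/R arrays above background, gets no bound, since its signal on every BTBR/R array lay above the lowest detected signal there. Its change was -0.32 (95% interval -0.53 to -0.11, adjusted p of 0.0248, limma), and -0.13 with normexp, which did not pass (adjusted p of 0.101, limma).

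**Figure D5:**
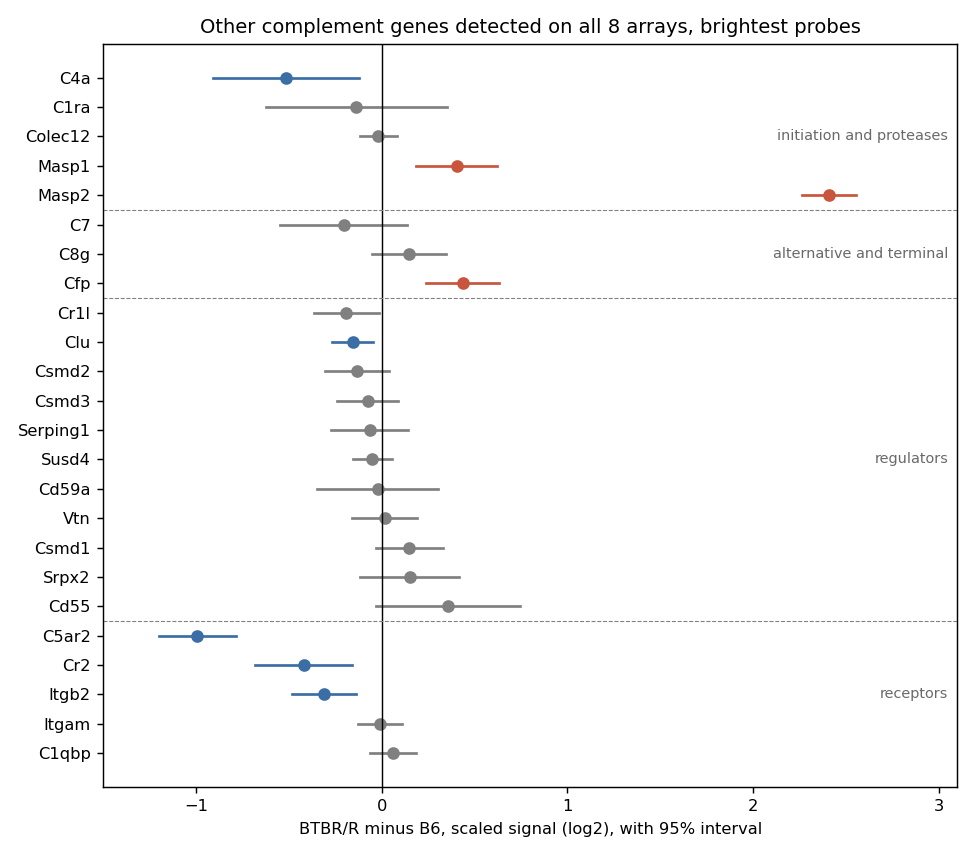
Change (BTBR/R minus B6, log2 scaled signal, horizontal axis) with 95% interval of the 24 further complement genes detected on all 8 arrays, by brightest probe and grouped by role (n = 4 arrays per strain). Blue passed lower, red passed higher and grey did not pass; Masp2 stands alone at 2.41, and C5ar2, at -0.99, is the lowest.

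The array patterns closest to C1qb and C4b were searched among 23126 probes of other genes detected on all 8 arrays, each centered on its B6 mean, by the root mean square difference over the 8 arrays. Closest to C1qb were Rab27b, a small GTPase of vesicle transport, at 0.06 log2 units, 9530036O11Rik at 0.07 and Ankrd10 at 0.07, with changes of -1.41, -1.45 and -1.36. Closest to C4b were Calcrl, a receptor of the calcitonin family, at 0.07, Prodh, proline dehydrogenase, at 0.08 and Hdx at 0.08.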

How the data were processed

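Agilent 1-color mouse arrays, 1 per mouse, measured total RNA of dissected cortex and striatum from 4 B6 and 4 BTBR/R mice. The deposited intensity values were made by the authors with Feature Extraction 10.7.3.1, which subtracted background, removed spatial trends and set surrogates for low signals. The deposited log2 values, from GeneSpring, lie within 0.01 of the log2 processed signal minus a constant for nearly all probes, and were an alternative.

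Control spots (leaving 59305 of 62976) and outlier spots were removed, spots of a probe averaged to 56605 probes, and log2 processed signal was scaled by each array's 75th percentile. Strains were compared with lmFit and eBayes in limma 3.58.1 (R 4.3.3) without a replicate block, with Benjamini-Hochberg adjustment over all probes. Single differences were tested by exact permutation (scipy 1.17.1). No probe was saturated. Precision is limited by having 4 arrays in each strain. The script recovered 193 of 200 probes changed by 1.5 log2 units in simulated data, with 9 false calls among 56583. The simulation had independent noise, no strain difference in background, and changes only in probes detected on all 8 arrays. It therefore checked the code only, and gives no error rate for smaller changes or for probes near background.

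Every probe of the 9 genes is reported, and the brightest probe stands for a gene. Of other lists, genes detected on all arrays that passed are named, largest first, up to 12 complement genes and 4 per cell type. For C1qb and C4b the 3 nearest patterns are named. 1 gene of the further complement list is not reported here and was left out of its counts. The members and lists were chosen with earlier results of these data known. Genes named beyond this rule, such as those that did not pass, were chosen after their values were seen. RefSeq accessions matched the same symbol for 12 of the 13 probes (the other had none). Alternatives covered background correction, scaling, detection, the authors' values, other tests, a replicate block and leaving out each array. Coordinates are those of the file annotation (mm9), and promoters are RefSeq on GRCm38.p6.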

Additional observations from a re-analysis of the deposited data

How the results depend on the processing

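The detected C1qa, C1qb and C1qc probes passed lower in 18 of 18 alternatives, at -0.38 to -0.24, -1.45 to -1.31 and -0.87 to -0.73. Masp2 and C5ar2 also passed in 18 of 18. With all probes counted, detected or not, 6 complement probes passed and 3 passed at 2-fold, and 19 further complement genes passed. These added calls came from probes not detected on every array. With normexp, the undetected C1qc and Cfb probes reversed to -0.10 and -0.073. Spike-in scaling moved the median of all detected probes to 0.12 and changed the split of all calls from 51.8% to 22.9% lower. The replicate numbers did not pair the arrays: same-number correlations of the deviations were 0.00, -0.07, -0.04 and 0.16. With a replicate block, 5 microglial markers passed, and the dimmer C3 probe passed higher (0.42, adjusted p of 0.0126, limma). The C1qb difference from the mean of the other chains was -0.83 with the replicate block, with a paired exact p of 0.125, the smallest that 4 pairs allow. Leaving out 1 array gave -0.839 to -0.816 with an exact p of 0.0571, the smallest for 3 against 4. Leaving out 1 array gave 5 to 8 further complement genes. Over the 18 alternatives that counted only probes detected on all arrays, there were 3 to 4 complement probes that passed and 1 that passed at 2-fold.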
